A study of Mus musculus with 2 samples.

Results

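The metallothionein and zinc handling genes described here are Mt1, Mt2 and Mt3, which encode metallothioneins, Mtf1, which encodes their metal sensor, the zinc exporter genes Slc30a1, Slc30a5 and Slc30a7, and the zinc importer genes Slc39a6, Slc39a10 and Slc39a14. They are 10 of the 54713 rows in the deposited table of all genes, each found as a single row by its symbol. The members were chosen by their known roles with the RNA counts of the same 2 libraries already seen, Mt1 being known as higher, so their values are given as a description and no test is made of them. Both libraries came from SV40 MES13, a mouse kidney line immortalised with SV40 sequences and labelled as mesangial, the contractile cell type that supports the glomerular capillaries. One group (genotype label WT) had received a control lentivirus and the other a lentivirus that delivers the long noncoding RNA AI662270. Puromycin at 0.5 mg/ml selected the infected cells of both groups, which then grew with 0.25 mg/ml of it and 10% serum, and both carry the treatment label untreated. The labels do not name the promoter of the viral transcript or say whether a line was 1 clone, and they name no added metal. Their protocol speaks of a check of Sox9 expression and not of AI662270, and the control columns bear another abbreviation than the control sample's title and were assigned to it as the single control of the series. The genotype label of the second group is overexpression of the RNA. Each group held 1 library, so every difference compares 2 libraries and has no replicate check.

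Zinc is a cofactor of many enzymes and a structural ion of many transcription factors, and free zinc inside cells is kept very low. Metallothioneins are small cysteine-rich proteins that bind zinc, copper and cadmium. MTF1 is a zinc finger factor that binds metal response elements in DNA when zinc rises and raises metallothionein transcription. SLC30 proteins move zinc out of the cytosol, across the plasma membrane or into organelles, and SLC39 proteins move it into the cytosol. Metallothionein genes are also known to respond to glucocorticoids, oxidative stress, low oxygen and acute phase cytokines.

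The libraries held 15727023 counts (control) and 15062482 counts (AI662270). AI662270 itself had 0 counts in the control library, where 3 counts would be 0.197 CPM (the count relative to the library's total after scaling of the libraries with the TMM method), and 241 counts in the AI662270 library. Of 8 mesangial marker genes 6 were measured, that is, averaged 1 CPM or more; Itga8 had 0 counts in both libraries, Cspg4 had 3 and 2, and the levels of the 8 summed to 45.6 and 59.4 CPM. Of 5 podocyte markers 2 were measured, with summed levels of 148.8 and 83.2 CPM with Nphs1 at 0 in both libraries and Wt1 at 0 and 22 counts. The 4 proximal tubule markers summed to 47.8 and 52.4 CPM with 2 measured and Slc34a1 at 0, the 4 macrophage markers to 34.4 and 14.6 CPM with 2 measured and Adgre1 at 0, and the 4 endothelial markers to 0.592 and 1.41 CPM with 0 measured and Tek at 0. Single markers had ratios in both directions within the mesangial and podocyte lists. The measured macrophage markers both had fewer counts in the AI662270 library, and the measured proximal tubule markers, Lrp2 and Cubn, both had more. Of these, Cd68 and Lrp2 did not differ beyond counting error. Of the mesangial markers Acta2 had 12 and 171 counts, Pdgfrb 185 and 338, Des 26 and 58 and Tbx18 36 and 68, while Gata3 had 76 and 25 and Foxd1 356 and 264. Of the measured podocyte markers Podxl had 1869 and 661 counts and Synpo 394 and 614, and of the measured macrophage markers Csf1r had 419 and 150 and Cd68 99 and 76. The part of such shifts in the values below was not tested, and in bulk RNA fewer cells with a transcript and less transcript per cell cannot be told apart.

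Mt1 was the one member that passed the rule of size used throughout, which asks for a log2 ratio of at least 1 in size (after adding 0.5 CPM to both levels) and a 95% exact counting interval of the ratio without 1. Mt1 was 3.80-fold higher in the AI662270 library, its neighbour Mt2 had a ratio of 2.28 at a very low level, and Mt3 was barely detected. Of the transporters, Slc39a10 had a ratio of 1.95 and Slc30a1 a ratio of 0.526, each just short of the rule on opposite sides. The other members had ratios between 0.810 and 1.19. Ratios are the AI662270 library over the control library, and bracketed ranges are 95% intervals that cover counting error only.

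Of the 10 members 9 were measured, and 1 of these was called higher and 0 lower. Among all 13268 measured genes 5.59% were called higher and 5.72% lower. With Mt2 left aside, the 8 members that averaged 20 CPM or more had the same 1 and 0 calls, where 1.95% and 4.79% of the 8241 genes of that level were called (a level chosen after the values were seen). The median log2 ratio of the 9 was 0.21, with a range from -0.91 to 1.92, against -0.016 for all measured genes. The counting interval lay above 1 for 5 members and below 1 for 2, but 31.9% and 35.8% of all measured genes did the same at this depth. Since Mt1 was known as higher when the members were chosen, nothing is read from these shares.

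**Figure D1:**
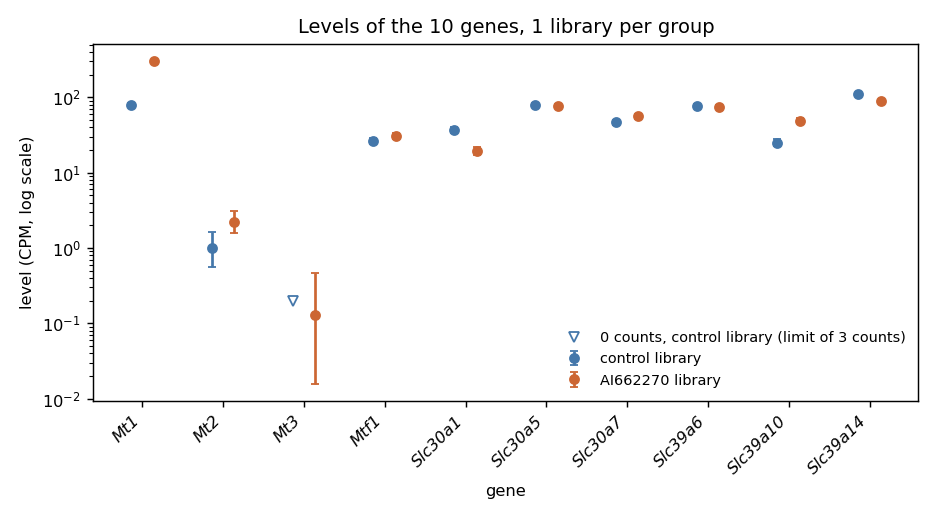
Levels of the 10 genes in CPM on a log axis, with 1 point per library and 95% exact Poisson intervals that cover counting error only. The open triangle marks 0 counts of Mt3 in the control library, drawn at the limit of 3 counts. The widest step between the libraries among the well-counted genes is that of Mt1, from 79.5 to 302 CPM.

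The stretches before the RefSeq starts of Mt1, Mt2 and Slc30a1 are printed because these genes are textbook targets of MTF1 and their transcripts had unlike ratios here. Each is the 250 bases before the RefSeq start site in build GRCm38.p6, 5′ to 3′ on the plus strand, at chr8:94178839-94179088 for Mt1, chr8:94172368-94172617 for Mt2 and chr1:191906531-191906780 for Slc30a1. Capitals mark matches, on either strand, to the core of the metal response element, searched as TGCACNC and TGCGCNC.
Mt1: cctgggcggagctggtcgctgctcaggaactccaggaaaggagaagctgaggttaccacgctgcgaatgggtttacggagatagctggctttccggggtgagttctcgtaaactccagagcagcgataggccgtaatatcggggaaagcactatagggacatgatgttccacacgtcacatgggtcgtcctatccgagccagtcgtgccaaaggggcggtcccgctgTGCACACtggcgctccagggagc
Mt2: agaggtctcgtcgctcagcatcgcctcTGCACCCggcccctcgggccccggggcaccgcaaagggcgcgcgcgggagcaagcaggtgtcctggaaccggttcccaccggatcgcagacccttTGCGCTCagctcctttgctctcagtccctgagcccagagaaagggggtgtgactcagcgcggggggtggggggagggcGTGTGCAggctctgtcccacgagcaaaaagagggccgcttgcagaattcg
Slc30a1: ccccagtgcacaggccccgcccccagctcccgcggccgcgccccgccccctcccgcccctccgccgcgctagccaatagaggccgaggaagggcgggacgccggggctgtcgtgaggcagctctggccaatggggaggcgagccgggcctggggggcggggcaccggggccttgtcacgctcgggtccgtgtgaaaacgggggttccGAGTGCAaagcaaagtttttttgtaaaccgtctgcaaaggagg
The printed stretch held 1 match for Mt1, 3 for Mt2 and 1 for Slc30a1. Further matches of Mt1 began at bases 3 and 21 from the start site, past the printed stretch. Which start these cells use was not tested, so the printed stretch of Mt1 may not be the promoter in use. Its count of matches is therefore not to be ranked against that of Mt2.

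A window that also takes in the first 50 bases of the transcript was searched for every gene in the RefSeq table. It held 3 matches for Mt1, starting at bases -23, 3 and 21 from the start site (the first transcribed base is 1), and 4 for Mt2, starting at bases -223, -128, -50 and 5. Such windows were uncommon: of 32851 windows, 25.7% held at least 1 match, 7.11% at least 2, 1.97% at least 3 and 0.517% at least 4. Slc30a1 held 2 matches, starting at bases -43 and 31. Mt3 and Slc30a5 held 1 match each, and the windows of Mtf1 and Slc30a7 and both windows of Slc39a10 held 0. Slc39a6 and Slc39a14 had no entry, so 8 of the 10 members matched the table. The search used letters alone and shows neither binding nor its absence. All positions and counts hold for the RefSeq start sites used. Mt1 had 1 window although it has 3 annotated transcripts, and sequence past base 50 or around any other start was not searched. Within these windows Mt2 had the most matches among the 8 members searched, and its order relative to Mt1 holds only for these start sites. Mt2 had far fewer RNA counts than Mt1 in both libraries, and a link between matches and RNA level was not tested.

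**Figure D2:**
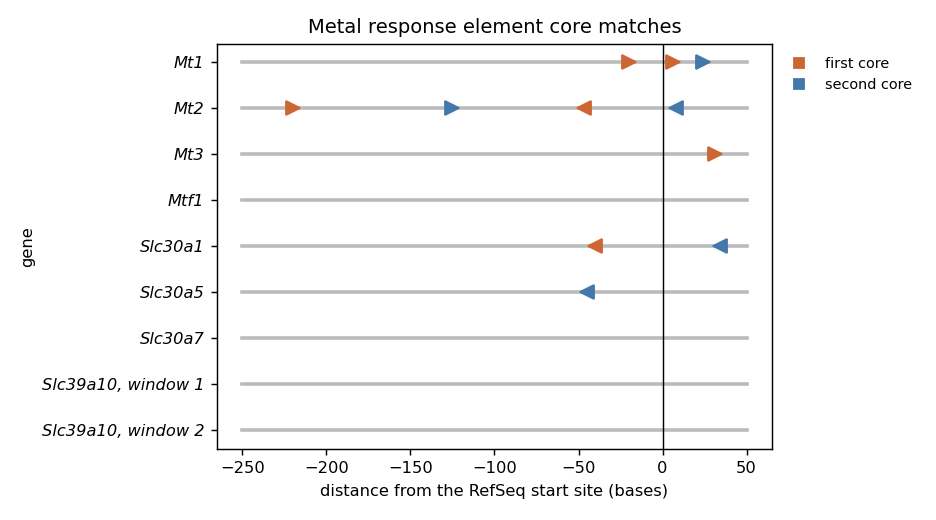
Positions of metal response element core matches in the window from 250 bases before to 50 bases after the RefSeq start sites, with 1 line per window and an arrowhead per match. Colours stand for the 2 spellings of the core in the order given in the text, and arrowheads point right for the gene's strand and left for the other. Mt1 holds 3 matches and Mt2 holds 4, while 4 windows hold 0.

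Mt1 (ENSMUSG00000031765) encodes one of the 2 metallothioneins made in most tissues and has 3 annotated transcripts on the plus strand of chromosome 8 (mm10, bases 94179082 to 94180327). Control cells gave 1208 counts and AI662270 cells 4709, or 79.5 CPM (75.04 to 84.1) and 302 CPM (294 to 311). The 2 intervals were far apart. The ratio was 3.80 (3.57 to 4.06) and the log2 ratio 1.92, and 1.18% of measured genes had a larger log2 ratio. In the authors' deposited table the log2 fold change of Mt1 was 1.93 with an adjusted p of 0.000467, a p made from 1 library against 1 library. No other member was in the authors' deposited table of 897 selected genes.

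Mt2 (ENSMUSG00000031762), the second widely expressed metallothionein gene, lies on the same strand at 94172664 to 94173568, which is -6.42 to -5.51 kb from the start of Mt1. The antisense gene Gm45774, from 94170748 to 94173412, overlaps most of Mt2 and had 0 counts in both libraries. Without strand information, reads in the shared stretch cannot be assigned. If such reads were dropped, the counts of both genes would be too low, so the level of Mt2 is uncertain. Mt2 had 15 and 35 counts, or 0.987 CPM (0.552 to 1.63) in the control and 2.25 CPM (1.56 to 3.12) in the AI662270 library. The intervals of the 2 levels overlapped slightly, and the ratio was 2.28 (1.21 to 4.49) with a log2 ratio of 0.89, short of the rule. With a pseudocount of 0.1 CPM the log2 ratio was 1.11 and Mt2 passed. Its ratio had the same direction as that of Mt1, and the wide interval of Mt2 takes in the Mt1 value.

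The counts of the 2 genes differed far more from each other than those of either gene did between libraries. The uncertain count of Mt2 limits all the factors below. Mt1 held 98.8% of the 1223 counts of the pair in the control library (97.99 to 99.3) and 99.3% of the 4744 counts in the AI662270 library (98.98 to 99.5), with exact binomial intervals that overlap. In counts Mt1 was 80.5 times Mt2 without the RNA and 134.5 times with it. How much of that gap is length depends on the length used. The deposited lengths are 1246 bases for Mt1 and 588 for Mt2. Per kilobase of these lengths Mt1 was 38.0 and 63.5 times Mt2 in the same order. The length of Mt1 is the union of all its exons and takes in introns kept by some transcripts, while its principal transcript has 549 bases and that of Mt2 has 511. Per kilobase of principal transcript the factors were 75.0 and 125.2, close to the 80.5 and 134.5 in counts.

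Mt3 (ENSMUSG00000031760), best known from brain, and Mt4, known from stratified epithelia, complete the cluster. Mt3 had 0 counts in the control and 2 in the AI662270 library, both within the limit of 3 counts that a count of 0 allows, so no ratio is given. Mt4, which is not among the 10, had 0 counts in both libraries, for which the one-sided limit of 3 counts is 0.197 and 0.193 CPM. As counted, the RNA of the family was thus almost wholly that of Mt1. Low Mt2 RNA and a loss of Mt2 reads in the stretch shared with Gm45774 cannot be told apart here.

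The 4 genes span 43.1 kb on chromosome 8, and none of the 6 measured genes nearest to it, 3 per side, was called. On the side of Mt4 these were Bbs2, a ciliary trafficking gene, with 299 and 363 counts, Ogfod1, an oxygenase of the ribosome, with 1121 and 888, and Nudt21, a cleavage factor of mRNA 3′ ends, with 2346 and 2090. Their ratios were 1.18, 0.773 and 0.869. On the side of Mt1 they were the nuclear pore gene Nup93 with 2942 and 3259 counts, the pseudogene Rpl10-ps5 with 28 and 39, and Herpud1, an endoplasmic reticulum stress gene, with 2190 and 1456. Their ratios were 1.08, 1.36 and 0.649, and Rpl10-ps5 is uncertain because it lies inside Nup93 and copies a ribosomal protein gene. The highest upper bound among the 6 was 2.29, that of Rpl10-ps5, and the interval of Mt1 began at 3.57.

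**Figure D3:**
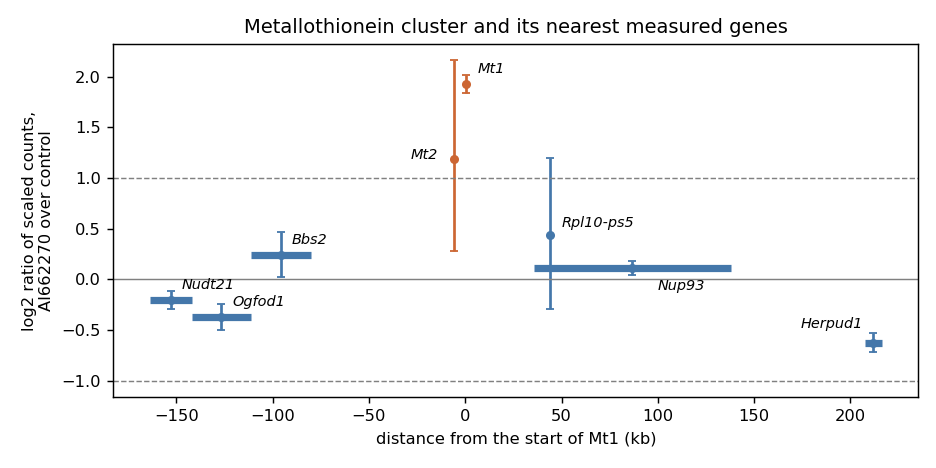
Log2 ratio of scaled counts for Mt1, Mt2 and 3 measured genes per side, against distance from the start of Mt1 in kb. Horizontal bars show the extent of each gene, points its middle, vertical bars the 95% counting interval, and dashed lines a ratio of 2 in either direction. Mt1 and Mt2 stand above the upper dashed line, Mt2 at a ratio of 2.28 with a wide interval from 1.21 to 4.49. The 6 flanking genes have ratios between 0.649 and 1.36.

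Mtf1 (ENSMUSG00000028890), on chromosome 4 from 124802104 to 124849800, encodes the factor that senses zinc and drives metallothionein genes. Its RNA had 399 and 473 counts, or 26.2 CPM (23.7 to 28.9) and 30.4 CPM (27.7 to 33.2). The intervals of the levels overlapped, and the ratio was 1.16 (1.01 to 1.32). The RNA level of a sensor says nothing of the activity of its protein. Mtf1 overlaps 1110065P20Rik on the other strand, which had 99 and 108 counts, and without strand information reads in the shared stretch cannot be assigned.

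Reported targets of MTF1 outside the members gave 1 call. Of 7 listed genes 6 were measured, 1 was called higher and 0 lower, with a median log2 ratio of 0.17, beside calls for 5.59% and 5.72% of all measured genes. The called gene was Pgf, which encodes placental growth factor, with 31 and 90 counts and a ratio of 2.83 (1.86 to 4.41). Pgf fell short when 2 CPM was added in place of 0.5, and at a minimum mean of 5 CPM it was not counted as measured. Csrp1, a cytoskeletal LIM protein gene and the one with the most counts in the list, lay on the other side of 1 with 7044 and 4735 counts and a ratio of 0.656 (0.632 to 0.681). Hamp, the hepcidin gene of liver, had 0 and 2 counts.

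Slc30a1 (ENSMUSG00000037434), on chromosome 1 from 191906767 to 191913247, encodes the exporter of the plasma membrane and is itself known as an MTF1 target. It had 562 and 303 counts, or 37.0 CPM (34.0 to 40.2) and 19.4 CPM (17.3 to 21.8). The intervals did not overlap, the control library being the higher one. The antisense gene 1700034H15Rik at its start had 4 and 6 counts. Its ratio was 0.526 (0.456 to 0.606) and its log2 ratio -0.91, short of the rule, and it had the lowest ratio among the 18 measured zinc transporters. Slc30a1 and Mt1, both with metal response element letters near their RefSeq starts, had ratios on opposite sides of 1. The part of such letters in either ratio was not tested.

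Slc30a5 and Slc30a7 encode exporters of the early secretory pathway, which fill it with zinc for enzymes such as alkaline phosphatase. Slc30a5 had 1200 and 1190 counts, or 78.9 CPM and 76.4 CPM, and its ratio of 0.968 (0.892 to 1.05) includes 1. Its log2 ratio was -0.047 and turned to 0.050 when libraries were scaled by total counts. Slc30a7 had 712 and 870 counts, or 46.8 CPM and 55.8 CPM, a ratio of 1.19 (1.08 to 1.32). Slc30a6, the partner of Slc30a5 in that compartment, had 452 and 467 counts and a ratio of 1.01 (0.884 to 1.15). Of the alkaline phosphatases that receive zinc there, Alpl had 579 and 609 counts and a ratio of 1.03 (0.914 to 1.15), Alppl2 had 0 counts in both libraries and Akp3 had 0 and 1.

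Over the whole SLC30 family 7 of 10 genes were measured, with 0 called in either direction and a median log2 ratio of 0.012, where 5.59% of all measured genes were called higher and 5.72% lower. The interval lay below 1 for Slc30a1 and Slc30a4 and above 1 for Slc30a7 and Slc30a9, as it did for 35.8% and 31.9% of all measured genes. Slc30a9 had 1921 and 2098 counts and a ratio of 1.07 (1.001 to 1.13). Slc30a4, an exporter of intracellular vesicles, had 2879 and 1811 counts and a ratio of 0.614 (0.578 to 0.651). It had the highest level of the family per kilobase of the deposited length, at 34.5 and 21.2 CPM per kilobase. Below it in the control library Slc30a5, Slc30a9 and Slc30a6 lay close together at 10.8, 10.2 and 9.71 CPM per kilobase. Slc30a8 and Slc30a10 had 0 counts in both libraries and Slc30a2 had 4 in each. The summed level of the 10 exporter genes was 511 CPM without and 437 CPM with the RNA.

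Slc39a10 (ENSMUSG00000025986), on chromosome 1 from 46807544 to 46892852 on the minus strand, encodes an importer of the plasma membrane that MTF1 has been reported to repress when zinc is high. It had 380 and 760 counts, or 25.0 CPM (22.5 to 27.6) and 48.8 CPM (45.4 to 52.4). The intervals did not overlap, and the ratio of 1.95 (1.72 to 2.21) with a log2 ratio of 0.95 was just short of the rule. The lincRNA gene Gm28151 that lies within it had 0 and 4 counts. Slc39a10 passed when libraries were scaled by total counts, at 1.05, or by upper quartiles, at 1.02. With TMM scaling 5.99% of measured genes had a larger log2 ratio.

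Slc39a6, on chromosome 18, is the closest relative of Slc39a10 and forms a complex with it. It had 1173 and 1147 counts, or 77.2 CPM and 73.6 CPM, with a ratio of 0.954 (0.879 to 1.04) that includes 1. Its log2 ratio was -0.067 and turned to 0.030 with scaling by total counts. The interval of the ratio of Slc39a6 ended at 1.04 and that of Slc39a10 began at 1.72, so the pair had unlike ratios beyond counting error. Slc39a14, on chromosome 14, encodes an importer of zinc, iron and manganese that inflammation induces in liver. It had 1664 and 1382 counts, or 109.4 CPM and 88.7 CPM, and a ratio of 0.810 (0.754 to 0.871).

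**Figure D4:**
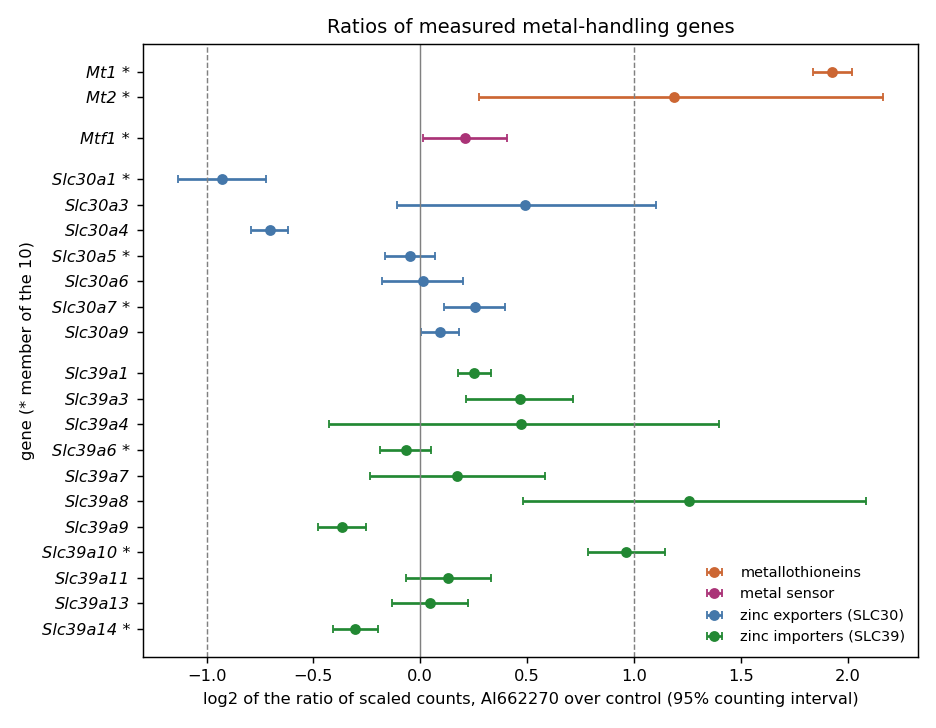
Log2 ratio of scaled counts, AI662270 over control, for the 2 measured metallothionein genes, Mtf1 and the 18 measured zinc transporter genes, without a pseudocount. Horizontal bars are 95% counting intervals, and dashed lines mark a ratio of 2 in either direction. Asterisks mark the members; Mt1 lies farthest to the right and Slc30a1 farthest to the left.

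Over the whole SLC39 family 11 of 14 genes were measured, with 1 called higher, 0 lower and a median log2 ratio of 0.16, beside the same 5.59% and 5.72% of all measured genes. The interval lay above 1 for Slc39a1, Slc39a3, Slc39a8 and Slc39a10 and below 1 for Slc39a9 and Slc39a14. The called gene was Slc39a8, which encodes an importer of zinc, manganese and cadmium. It had 20 and 49 counts and a ratio of 2.39 (1.395 to 4.25), and its log2 ratio of 1.01 fell below 1 when 2 CPM was added in place of 0.5. Slc39a1, an importer of the plasma membrane, had the highest level of the family per kilobase of the deposited length, at 68.1 and 81.1 CPM per kilobase. Slc39a6 came next at 18.9 and 18.1 CPM per kilobase. Slc39a10 stood at rank 7 of 14 in the control library with 4.10 CPM per kilobase and at rank 5 in the AI662270 library, close to Slc39a14 at 8.41. The summed level of the 14 importer genes was 554 CPM without and 574 CPM with the RNA. Several of these genes overlap neighbours with counts, among them Slc39a9 with Erh, Slc39a11 with Cog1 and Slc39a13 with Psmc3, so their counts are uncertain.

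Among the 10 members Mt1 had the highest level per kilobase of the deposited length in both libraries, at 63.8 and 242.6 CPM per kilobase. In the control library Slc39a6 at 18.9, Slc30a5 at 10.8 and Slc39a14 at 10.4 CPM per kilobase followed. The levels of Slc30a5 and Slc39a14 differed little, and per principal transcript the order of these 3 was Slc30a5 at 24.8, Slc39a14 at 22.2 and Slc39a6 at 19.9. Slc30a1 moved from rank 5 at 7.05 to rank 8 at 3.71 CPM per kilobase, and Slc39a10 from rank 7 to rank 5. Neighbours in these orders were often close, such as Slc30a7 at 4.21 and Slc39a10 at 4.10 CPM per kilobase in the control library, and Mt2 at 3.82, Slc30a1 at 3.71 and Mtf1 at 3.41 in the AI662270 library, and with no replicate their order is not resolved. Mt2 was at rank 9 in the control library with 1.68 CPM per kilobase, below Mtf1 at 2.95.

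**Figure D5:**
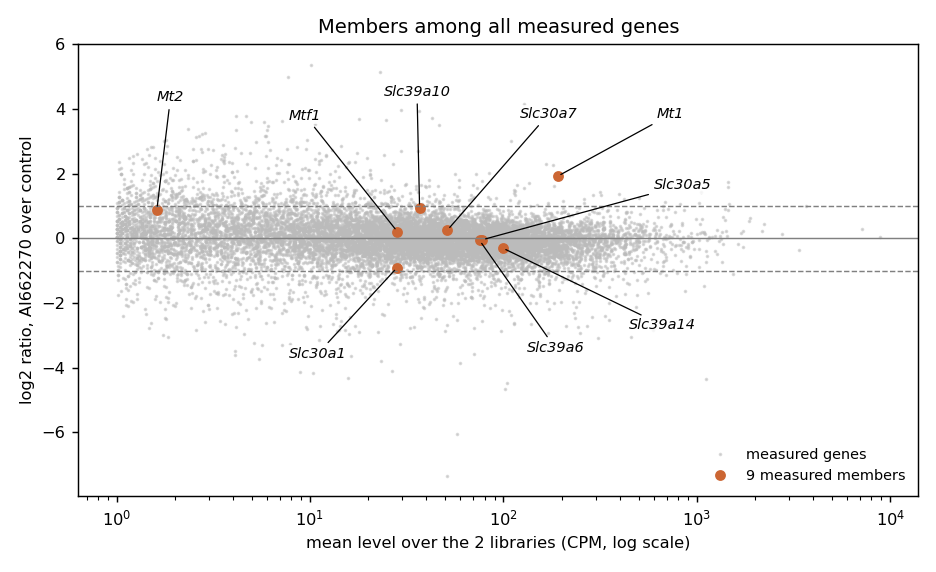
Log2 ratio (pseudocount 0.5 CPM) against the mean level over the 2 libraries for 13268 measured genes in grey and the 9 measured members in orange. Dashed lines mark log2 ratios of 1 and -1. Mt1 lies above the upper line at a mean of 190.8 CPM, and Slc39a10 and Slc30a1 lie just inside the lines.

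Copper, which metallothioneins also bind, is handled by a separate set of genes, of which 10 of 11 were measured, 3 called higher and 0 lower, with a median log2 ratio of 0.34. Over all measured genes 5.59% were called higher and 5.72% lower, and at 20 CPM or more 1.95% and 4.79%. Atp7b, a copper-exporting ATPase, rose 8.08-fold (5.59 to 12.1), from 32 to 265 counts. Atox1, the chaperone that hands copper to it, rose 2.02-fold (1.78 to 2.30), from 362 to 751 counts. Cox17, a chaperone for cytochrome oxidase, rose 2.28-fold (1.52 to 3.46), from 36 to 84 counts. Most of Cox17 is overlapped by Gm21987 on the same strand, a gene with 0 counts in both libraries, so the counts of Cox17 are uncertain. With 2 CPM added 1 of the 3 was called. The uptake transporter gene Slc31a1 had 1197 and 1349 counts and a ratio of 1.10 (1.02 to 1.19). Atp7a, the relative of Atp7b in most tissues outside liver, had 405 and 542 counts and a ratio of 1.31 (1.15 to 1.49).

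Other signals known to act on metallothionein genes were read through 3 further lists, each to be set beside the 5.59% of all measured genes called higher and 5.72% called lower. Of 8 genes that respond to metals and electrophiles, all measured, 0 were called higher and 2 lower, with a median log2 ratio of 0.17. Hmox1, the heme oxygenase gene that cadmium and other metals induce, had 1138 and 1333 counts and a ratio of 1.14 (1.06 to 1.24), and was named after its values were seen. The lower genes were the cystine transporter gene Slc7a11, with 1492 and 260 counts, and Osgin1, with 983 and 360. Of 7 glucocorticoid response genes 6 were measured, 0 called higher and 3 lower, with a median of -0.88. The lower genes were the phosphatase gene Dusp1 with 4083 and 1077 counts, the kinase gene Sgk1 with 392 and 118, and Klf9 with 1038 and 460, while Fkbp5, named after its values were seen, had 1238 and 1795 counts and a ratio of 1.41 (1.32 to 1.52). Dusp1 and Sgk1 also respond to serum.

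Of 8 genes of the STAT3 and acute phase response, all measured, 3 were called higher and 1 lower, with a median log2 ratio of 0.68, against the same 5.59% and 5.72%. Lcn2, the lipocalin gene of the acute phase and the one with the most counts in the list, lay just short of the rule on the lower side, with 15173 and 7812 counts and a ratio of 0.502 (0.489 to 0.516). With it the summed level of the list was 1253 CPM in the control and 890 CPM with AI662270. Saa3, an acute phase protein gene, had 52 and 292 counts, Osmr, a receptor chain for oncostatin M, had 273 and 816 counts and a ratio of 2.92 (2.54 to 3.36), and Cebpd, a transcription factor gene, had 496 and 1284 counts and a ratio of 2.53 (2.28 to 2.81). Cebpd overlaps Spidr, and the lower gene was the kinase gene Pim1, with 544 and 258 counts, named after its values were seen. Slc39a14, which acute phase signals raise in liver, was not called in either direction beside these genes. All these lists were chosen with results of the same libraries known, and the part of any such signal in the level of Mt1 was not tested.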

How the data were processed

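RNA was sequenced from 2 libraries, 1 per group. Per the submitters' processing notes, CASAVA 1.4, TopHat2 and build mm10 were used; the counter, annotation release and strandedness were not given in the sources used here. The authors deposited raw counts per gene, FPKM values that use 1 divisor of 15391166 in both libraries, signal columns of rescaled counts, and their own log2 fold changes and p-values; only counts, lengths and the quoted authors' values were used. Counts were scaled by TMM (edgeR 4.0.16, R 4.3.3), with effective sizes given by factors of 0.967 (control) and 1.03 (AI662270), and ratios were computed in Python 3.11.15 with scipy 1.17.1. Measured means an average of 1 CPM or more. Intervals are exact at 95% (Clopper-Pearson for ratios and shares, Poisson for levels) and cover counting error only, since reads carry no molecular identifiers. No p-value was computed. Lengths of principal transcripts come from GENCODE M21, whose exon unions equal the deposited length in 90 of 98 genes compared. Promoters are from RefSeq (GRCm38.p6).

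The members and lists were chosen with earlier results of these data known. Named genes are all members, every further called zinc transporter, up to 3 called genes with the largest log2 ratios in size per list or the 2 most abundant where none was called, AI662270, and the nearest 3 measured genes per side of the metallothionein cluster; other genes were named after their values were seen. Alternatives were other scalings (total counts, DESeq2 1.42.0 size factors, upper quartiles), pseudocounts, filters, fold thresholds and gene lengths.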

Additional observations from a re-analysis of the deposited data

How the results depend on the processing

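Mt1 kept its direction and its call under every scaling (total counts, DESeq2 size factors, upper quartiles) and pseudocount tried, with a log2 ratio from 1.90 to 2.02, and Slc30a1 stayed short of the rule, from -0.92 to -0.81. The ratios of Slc30a5 and Slc39a6, neither of them called, changed sign under 2 settings each. With total counts 2 members were called higher, since Slc39a10 reached 1.05, as were 2 SLC39 genes, and 0 STAT3 and acute phase genes were called lower; that scaling moved the median of all genes by 0.096. With upper quartiles 2 members and 2 SLC39 genes were called higher, Slc39a10 being at 1.02. With a pseudocount of 0.1 CPM Mt2 reached 1.11, giving 2 members and 2 metallothioneins called higher. With a pseudocount of 2 CPM the calls higher were 400 among all genes, 0 among SLC39 genes, 0 among MTF1 targets and 1 among copper genes. With a rule of 1.5-fold 1705 genes were called higher and 1893 lower, and among them 3 members higher and 1 lower, 2 metallothioneins and 2 SLC39 genes higher, and 2 SLC30 genes, 1 MTF1 target and 2 STAT3 and acute phase genes lower. With a rule of 3-fold 247 genes were called higher and 262 lower, with 0 SLC39 genes, 0 MTF1 targets, 1 copper gene and 1 STAT3 and acute phase gene higher, and 1 metal and electrophile gene and 0 STAT3 and acute phase genes lower. With a mean of at least 5 CPM 391 genes were called higher, with 0 SLC39 genes and 0 MTF1 targets; with at least 20 CPM, added after seeing the data, 161 were called higher and 395 lower. Filters and thresholds change counts by their construction. So do scalings and pseudocounts, which enter every ratio before the rule is applied. The median of all genes moved by 0.067 with upper quartiles and by 0.035 with DESeq2 size factors. Without a filter the medians of the metallothioneins and of the glucocorticoid list were 0.89 and -0.57. The share of Mt1 in the pair was 97.4% in the control and 98.4% in the AI662270 library per kilobase of the deposited length. No paired analysis was possible because each group held 1 library. Depth limits Mt2, at 15 and 35 counts, and Mt3, and the overlap with Gm45774 leaves the counts of Mt2 uncertain.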
